A study of Drosophila melanogaster
Mus musculus with 36 samples.

Results

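The mir-2 and mir-13 family of Drosophila melanogaster is a group of microRNAs (miRNAs), small RNAs that guide Argonaute proteins to messenger RNAs. Its members were taken by name, as every entry whose name starts with dme-mir-2a, dme-mir-2b, dme-mir-2c, dme-mir-13a or dme-mir-13b, followed by a copy number or arm. This gave 15 entries of 372 fly entries, in tables of 2038 fly and mouse entries. The 15 entries come from 8 hairpins, both arms of 7 and the 3p arm alone of mir-2c, where an arm is the side of the hairpin, 5′ or 3′, that a small RNA comes from.

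The 36 libraries hold small RNAs of fly S2-S cells (genotype DmHen1-KO; FLAG-MYC-AthHEN1) combined with RNA from 1 clone, AN3-12, of embryonic stem (ES) cells of the mouse. S2 cells are a cultured line of embryonic origin. The fly cells of every group lack their own Hen1 and carry HEN1 of Arabidopsis thaliana, so no library without that enzyme entered these comparisons. The fly to mouse ratios were 1:1, 1:10, 1:100, 1:1000, 1:10000 and 1:100000, and each mixture was split into an oxidised part, treated with sodium periodate, and an untreated part. Each of the 12 groups of treatment by ratio held 3 libraries. The labels describe the RNA input differently between replicate sets. For replicate 1, the libraries with unnumbered titles, they give the amount of mouse RNA per mixture. For the other replicates they give the amount of total RNA per mixture. Replicate 1 thus differs from the others in its labelled protocol, and the part of this in its values was not tested. No label says that replicates were grown apart, so the p-values measure the spread between these libraries, which may be technical.

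As background, the family is known in flies for repressing the pro-apoptotic genes reaper, grim, hid and sickle. The 3p arms share a seed, the stretch near the 5′ end that pairs with a target, and this seed matches the K box, a short motif first described downstream of the coding part of Notch pathway genes. HEN1 is a methyltransferase that marks small RNAs at their 3′ end, on the 2′-hydroxyl of the final ribose. Periodate oxidises 3′ ends that lack this group, and oxidised ends cannot be ligated to the sequencing adapter. The comparison of oxidised with untreated libraries therefore asks which small RNAs carried a protected 3′ end.

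The hairpins lie in 4 host genes of the Release 6 gene table, which was used for names and neighbours only. The hairpins mir-2a-2, mir-2a-1 and mir-2b-2 are neighbours within spi, the gene of the epidermal growth factor Spitz. Likewise mir-13b-1, mir-13a and mir-2c are neighbours within lncRNA:CR45911, a long non-coding RNA. The other two stand alone, mir-2b-1 within Btk, a tyrosine kinase gene, and mir-13b-2 within CCT2, which encodes a chaperonin subunit.

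Depth differed between the treatments. Total miRNA counts lay between 3654 and 1312983 in oxidised libraries (median 37848), against 326776 to 16619583 in untreated libraries (median 4345832). The family itself had 47 to 247512 counts in oxidised libraries and 9 to 207486 counts in untreated libraries. The mir-290 cluster, which marks mouse ES cells, made up 5.14% to 76.0% of mouse counts in oxidised libraries and 66.8% to 90.0% in untreated libraries. Entries of 3 S2 cell miRNAs, bantam, mir-14 and mir-184, made up 15.4% to 44.1% of fly counts in oxidised libraries and 16.7% to 55.7% in untreated libraries. Values at 1:1 to 1:100 rest on 1368 or more family counts in every oxidised library and 1876 or more in every untreated one, and the description below leads with them.

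Members differed widely in level. In oxidised 1:1 libraries mir-2a-2-3p was the most abundant fly entry of all, with 12.3% ± 1.55 of fly miRNA counts (SD, n = 3), and in untreated 1:1 libraries it ranked 3, with 3.80% ± 0.132. In oxidised 1:1 libraries the order of mean share ran on through mir-2b-2-5p, mir-2a-2-5p, the mir-13b-3p entries, mir-2a-1-5p, mir-2a-1-3p, mir-13b-2-5p, the mir-2b-3p entries, mir-13a-3p and mir-2c-3p. In untreated 1:1 libraries it ran through the mir-13b-3p entries, mir-2a-1-3p, mir-2a-2-5p, mir-2b-2-5p, mir-2a-1-5p, the mir-2b-3p entries, mir-13b-2-5p, mir-2c-3p and mir-13a-3p. Neighbours in the oxidised order overlapped in range at mir-2b-2-5p with mir-2a-2-5p, within each 3p copy pair, at mir-2b-2-3p with mir-13a-3p, and at mir-13a-3p with mir-2c-3p. The entries mir-13a-5p, mir-13b-1-5p and mir-2b-1-5p never exceeded 1, 1 and 5 counts in any library and were too low to test, so 12 of 15 members passed the filter on low counts.

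As the deposited counts divide reads between the hairpins, the 3p entries of mir-2a-1 and mir-2a-2 took opposite paths. The rule of this division is not given, and the sum of both entries is described further below. In replicates 1, 2 and 3 of the 1:1 mixture, mir-2a-2-3p made up 11.9%, 14.1% and 11.1% of fly counts in oxidised libraries, against 3.76%, 3.70% and 3.95% in untreated libraries. All oxidised libraries stood above all untreated ones, and the mean share was 3.24 times higher. In the same mixtures mir-2a-1-3p made up 0.323%, 0.304% and 0.291% of fly counts in oxidised libraries, against 1.74%, 1.46% and 1.81% in untreated libraries. Here all oxidised libraries lay below all untreated ones. At 1:10 the means were 11.5% ± 1.63 in oxidised and 4.85% ± 0.332 in untreated libraries for mir-2a-2-3p, and 0.314% ± 0.0326 in oxidised and 1.65% ± 0.144 in untreated libraries for mir-2a-1-3p (SD, n = 3 each). At 1:100 mir-2a-2-3p held 12.2% ± 3.04 in oxidised and 4.70% ± 1.03 in untreated libraries, and mir-2a-1-3p held 0.291% ± 0.0421 in oxidised and 1.68% ± 0.101 in untreated libraries.

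**Figure D1:**
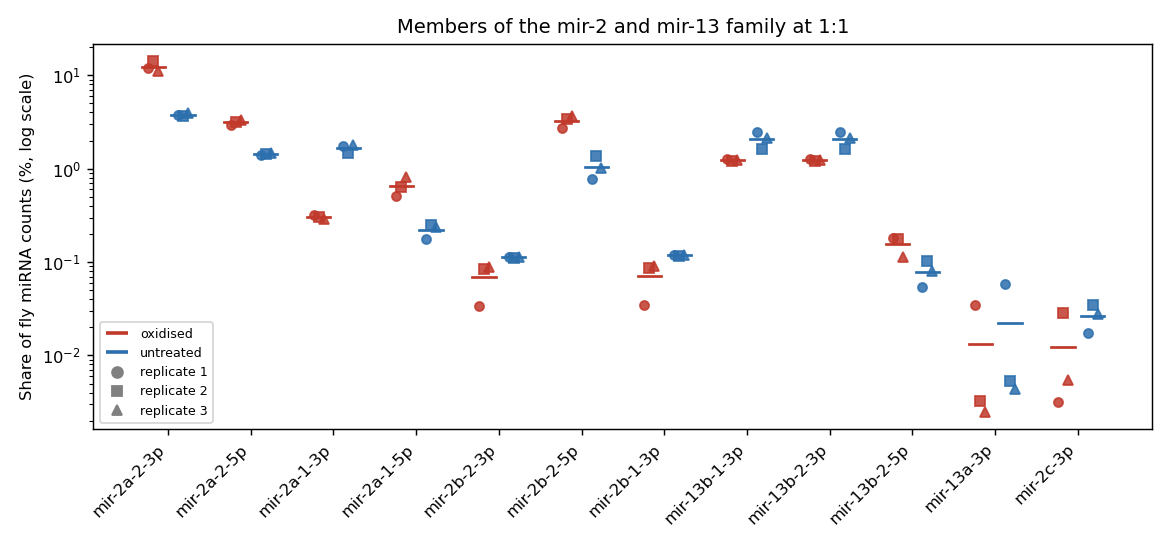
Share of fly miRNA counts of each tested member in the 3 oxidised (red) and 3 untreated (blue) libraries of the 1:1 mixture, in percent on a log axis, with 1 symbol per replicate and a bar at the mean. The oxidised libraries lie above the untreated ones for mir-2a-2-3p and for the 4 entries of 5p arms, and below them for mir-2a-1-3p and the mir-13b and mir-2b 3p arms.

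The 4 entries of 5p arms with enough counts, from mir-2a-1, mir-2a-2, mir-2b-2 and mir-13b-2, all held a larger share of fly counts in oxidised libraries. The 5p arm of mir-2b-2 made up 2.76%, 3.42% and 3.66% in oxidised 1:1 libraries of replicates 1, 2 and 3, against 0.778%, 1.35% and 1.01% in untreated ones. The 5p arm of mir-2a-2 made up 3.15% ± 0.195 in oxidised and 1.43% ± 0.0448 in untreated 1:1 libraries (SD, n = 3 each). For mir-2a-1-5p the shares were 0.653% ± 0.151 in oxidised and 0.223% ± 0.0397 in untreated libraries. The 5p arm of mir-13b-2 was the lowest of these, with 0.179%, 0.177% and 0.114% in oxidised 1:1 libraries, against 0.0543%, 0.103% and 0.0797% in untreated ones. None of these 4 entries overlapped between treatments at 1:1, 1:10 or 1:100. With mir-2a-2-3p, 5 of 12 tested members lay above all untreated libraries in every oxidised library at each of these ratios, as did 46.2%, 38.5% and 29.1% of all tested fly entries. At 1:100 mir-13b-2-5p reached 0.259% ± 0.0664 in oxidised libraries, against 0.0438% ± 0.0165 in untreated libraries, which is 5.91 times the mean. These shares rest on 132, 44 and 20 counts in oxidised libraries of replicates 1, 2 and 3, against 16, 3 and 99 in untreated ones.

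The remaining 3p arms, like mir-2a-1-3p, had lower mean shares after oxidation. The copies of mir-13b-3p each held 1.26%, 1.21% and 1.24% of fly counts in oxidised 1:1 libraries of replicates 1, 2 and 3, against 2.47%, 1.64% and 2.12% in untreated ones. The groups did not overlap at 1:1, 1:10 or 1:100. Members that lay below all untreated libraries in every oxidised library numbered 5 of 12 at 1:1, 6 at 1:10 and 3 at 1:100, beside 17.1%, 23.1% and 21.4% of all tested fly entries. These numbers take the nearly equal copies of mir-13b-3p, and those of mir-2b-3p, as separate entries. The entry mir-2b-1-3p held 0.0709% ± 0.0314 in oxidised and 0.119% ± 0.00152 in untreated 1:1 libraries, and mir-2b-2-3p 0.0688% ± 0.0307 in oxidised and 0.113% ± 0.00128 in untreated libraries (SD, n = 3 each). Replicate 1 was the lowest oxidised library for both, at 0.0347% and 0.0335%. These copies did not overlap between treatments at 1:1 and 1:10, and did at 1:100. For mir-2c-3p the counts were 37.3, 8.67 and 17.7 in oxidised 1:1 libraries, against 274, 53 and 307 in untreated ones, and its shares overlapped at 1:1. For mir-13a-3p replicate 1 stood apart, with 400, 1 and 8 counts in oxidised 1:1 libraries, against 913, 8 and 48.3 in untreated ones, so its group means rest on that replicate.

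The change of each member relative to other fly miRNAs was tested with edgeR's quasi-likelihood test over all 36 libraries, scaled to fly counts, with Benjamini-Hochberg adjustment over the 117 fly entries tested. At 1:1 the test called 0 of 12 members higher in oxidised libraries, where it called 0% of fly entries, and 2 of 12 lower, where it called 10.3%. At 1:10 it called 0 higher (1.71% of fly entries) and 2 lower (10.3%), and at 1:100 it called 1 higher (1.71%) and 1 lower (9.4%). The median log2 change of the 12 members was -1.10 at 1:1, -1.15 at 1:10 and -1.50 at 1:100, beside 0.15, 0.14 and -0.05 for all tested fly entries. The nearly equal copies of mir-13b-3p, and those of mir-2b-3p, enter this median and the member counts as separate entries. A median with such copies taken once was not computed. At an unadjusted p under 0.05 the members passing numbered 6 at 1:1, 6 at 1:10 and 7 at 1:100, beside 29.9%, 29.1% and 30.8% of fly entries. These values use TMM factors, trimmed means that centre the typical entry. With fly totals alone the median of all tested fly entries was 0.67 at 1:1, 0.60 at 1:10 and 0.54 at 1:100.

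In this fit, which takes no account of the split mixtures, only dme-mir-2a-1-3p was called at all 3 of these ratios. It fell by 3.00 ± 0.62 on the log2 scale at 1:1 (SE, adjusted p = 0.000581), by 2.82 ± 0.62 at 1:10 (adjusted p = 0.00123) and by 3.11 ± 0.63 at 1:100 (adjusted p = 0.000411). Without replicate 2 its call was lost at 1:1, with a change of -3.15 and an adjusted p of 0.130, and without replicate 3 it was lost with a change of -3.06 and an adjusted p of 0.225. The call was lost at 1:10 and 1:100 too without either of these replicates, with changes between -2.60 and -3.12. At 1:1000 the change was -1.81 ± 0.61 (adjusted p = 0.0663), and no member was called at 1:1000 (0.855% of fly entries higher and 5.13% lower), 1:10000 or 1:100000 (0% in both directions), where 1, 0 and 2 members passed an unadjusted p under 0.05, beside 22.2%, 11.1% and 9.40% of fly entries.

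The other calls concerned low entries. The entry dme-mir-2c-3p fell by 2.17 ± 0.69 at 1:1 (adjusted p = 0.0390) and by 2.11 ± 0.69 at 1:10 (adjusted p = 0.0416), and both calls were lost without replicate 3 (adjusted p = 0.450 at 1:1 and 0.558 at 1:10), the call at 1:10 also without replicate 2 (adjusted p = 0.0845). The entry dme-mir-13b-2-5p rose by 1.87 ± 0.63 at 1:100 (adjusted p = 0.0425), a call lost without replicate 2 (adjusted p = 0.481) or replicate 3 (adjusted p = 0.384). The abundant dme-mir-2a-2-3p had a log2 change of 1.12 ± 0.72 at 1:1, 0.81 ± 0.71 at 1:10 and 0.75 ± 0.71 at 1:100, with adjusted p of 0.310, 0.429 and 0.456. The change of dme-mir-2b-2-5p was 1.03 ± 0.70 at 1:1 (adjusted p = 0.328) and that of dme-mir-13b-2-3p -1.29 ± 0.59 (adjusted p = 0.143).

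**Figure D2:**
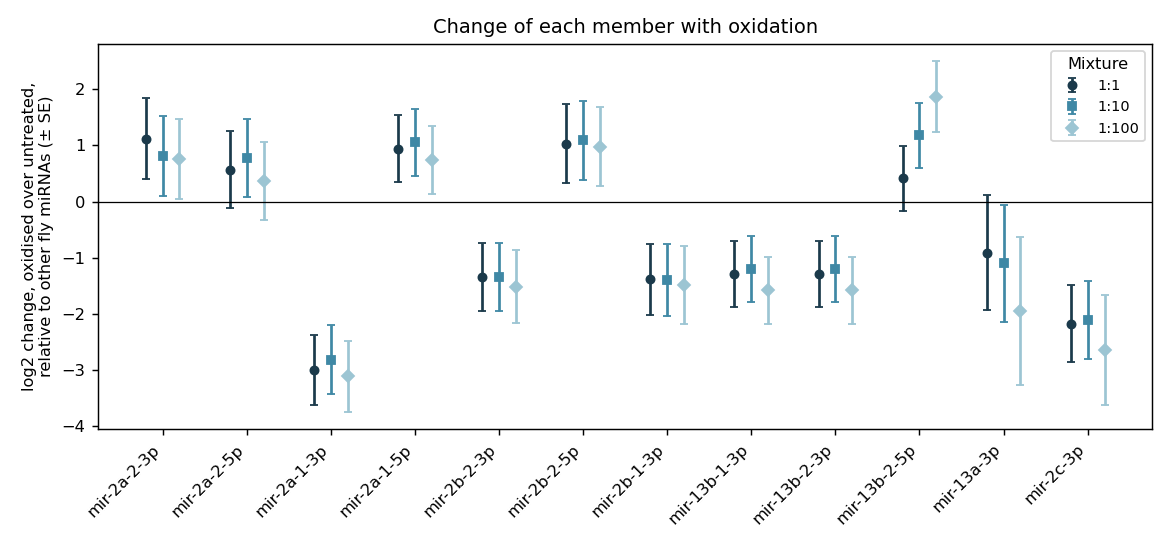
Log2 change of each tested member, oxidised over untreated, relative to other fly miRNAs at 1:1, 1:10 and 1:100, with bars of ± 1 SE derived from the edgeR test statistic. The 5p arms and mir-2a-2-3p lie above 0 and the other 3p arms below 0 at all 3 ratios, and mir-2a-1-3p is lowest at each.

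Each mixture was split before oxidation, so the same test was also run with the mixture as a block. This raised the calls to 1 higher and 7 lower at 1:1 (23.9% and 25.6% of fly entries), 2 higher and 7 lower at 1:10 (23.9% and 28.2%), and 2 higher and 7 lower at 1:100 (16.2% and 28.2%). The 7 lower members at each of these ratios were the 3p arms other than mir-2a-2-3p. The copies of mir-13b-3p had nearly the same counts, as had those of mir-2b-3p, so these 7 are not separate measurements. Among them mir-2a-1-3p fell by 3.01 ± 0.31 at 1:1 (edgeR with block, adjusted p = 6.92e-09), mir-13b-2-3p by 1.30 ± 0.45 (adjusted p = 0.0153) and mir-2b-1-3p by 1.45 ± 0.30 (adjusted p = 0.000275). The entry mir-2a-1-5p rose by 0.98 ± 0.28 at 1:1 (adjusted p = 0.00431) and was called at 1:10 and 1:100 too, where mir-13b-2-5p joined it. For mir-2a-2-3p the blocked change was 1.12 ± 0.51 at 1:1 (adjusted p = 0.0707). At 1:1000 the block gave 1 lower call (8.55% of fly entries), again mir-2a-1-3p, with a change of -1.91 ± 0.37 (adjusted p = 0.00192).

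The fits above take their spread from fly and mouse entries together. With fly entries alone in the fit, an alternative added after the data were seen, 1 member was higher and 6 were lower at 1:1 (12.8% and 18.8% of fly entries), 2 and 6 at 1:10 (8.55% and 18.8%), and 1 and 6 at 1:100 (9.4% and 22.2%). The member called higher at 1:1 was mir-2a-2-3p, with the same log2 change of 1.12 and an SE of 0.36 (edgeR, adjusted p = 0.0162), and it was not called at 1:10 (adjusted p = 0.0722) or 1:100 (adjusted p = 0.102).

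Whether the change depended on how much fly RNA the mixture held was tested as the difference of the changes at 1:100 and 1:1. No member was called (0 of 12, with 0% of fly entries called in either direction by edgeR, and 0 members and 0.855% of fly entries at an unadjusted p under 0.05). With the mixture as a block 0 members were called too, and 1 member and 6.84% of fly entries passed an unadjusted p under 0.05. The largest difference was that of mir-13b-2-5p, 1.46 ± 0.85 on the log2 scale (adjusted p = 0.997).

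Several names occur as numbered copies in different hairpins, and hairpins of 1 name are known to give 3p strands of the same or nearly the same sequence. The deposited counts of such copies can be fractional, and the rule that shared reads between them is not given in the sources used here. The copies mir-13b-1-3p and mir-13b-2-3p had exactly equal counts (tolerance 0) in 27 of 36 libraries and differed by at most 18 counts. The copies mir-2b-1-3p and mir-2b-2-3p were equal in 21 libraries, in 5 of which both were at 0, and differed by at most 89 counts. The copies mir-2a-1-3p and mir-2a-2-3p were equal in 1 library. The 5p arms separated the copies far more, with 3 counts of mir-13b-1-5p and 7131 of mir-13b-2-5p over all libraries, and with 10 of mir-2b-1-5p and 105609 of mir-2b-2-5p. The 3p values of mir-13b and mir-2b are therefore uncertain copy by copy, and those of mir-2a may depend on the rule too, which was not tested. Counts and medians over the tested members take each copy as an entry, so mir-13b-3p and mir-2b-3p enter them more than once.

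Set against each other within a library, where no scaling enters, the mir-2a 3p copies differed between treatments. The ratio of mir-2a-2-3p to mir-2a-1-3p was 36.8, 46.0 and 37.9 in oxidised 1:1 libraries of replicates 1, 2 and 3, against 2.17, 2.54 and 2.18 in untreated ones. Its geometric mean was 40.0 in oxidised and 2.29 in untreated libraries at 1:1, 36.4 in oxidised and 2.95 in untreated libraries at 1:10, and 40.7 in oxidised and 2.76 in untreated libraries at 1:100. The groups did not overlap at these ratios or at 1:1000, where the means were 23.6 in oxidised and 3.83 in untreated libraries. With labels permuted within the ratios 1:1 to 1:100, the log2 ratio was higher by 3.88 in oxidised libraries (exact two-sided permutation test, p = 0.00025, the smallest that 8000 permutations can give, 9 of 9 pairs). With both parts of each mixture as a pair, the exact sign-flip test gave p = 0.00391, the smallest possible with 9 pairs. Both tests take the ratios of a replicate set as independent mixtures, which no label states. At single ratios 3 against 3 libraries cannot reach an exact p below 0.1, and the exact permutation p was 0.1 from 1:1 to 1:1000 (0.15 after Benjamini-Hochberg adjustment over the 6 ratios).

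At the highest dilutions the copies no longer separated the treatments. The geometric mean ratio was 8.46 in oxidised and 3.63 in untreated libraries at 1:10000 (log2 difference 1.22, exact permutation p = 0.3, adjusted 0.36), and the groups overlapped. At 1:100000 it was 3.20 in oxidised and 3.04 in untreated libraries (log2 difference 0.07, exact permutation p = 1, adjusted 1). At 1:100000 mir-2a-1-3p had 3.5, 47.3 and 19.5 counts in oxidised libraries of replicates 1, 2 and 3, against 17, 2 and 3.5 in untreated ones.

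**Figure D3:**
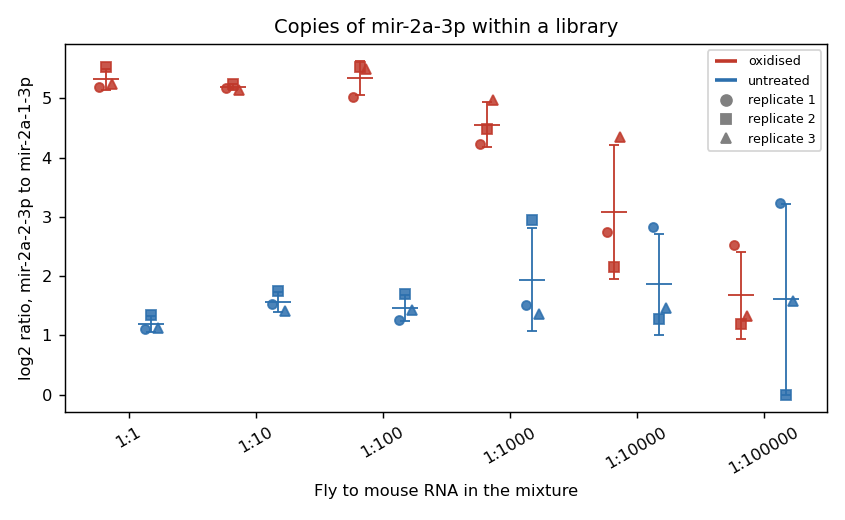
Log2 ratio of mir-2a-2-3p to mir-2a-1-3p counts within each library (pseudocount 0.5) by mixing ratio, oxidised in red and untreated in blue, with 1 symbol per replicate and bars of mean ± SD (n = 3). Oxidised libraries lie at means of 5.32, 5.19 and 5.35 from 1:1 to 1:100, above untreated means of 1.19, 1.56 and 1.46, and the groups overlap at 1:10000 and 1:100000.

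Summed over the copies, mir-2a-3p held 12.6% ± 1.55 of fly counts in oxidised and 5.47% ± 0.307 in untreated 1:1 libraries (SD, n = 3 each). Its log2 change relative to other fly miRNAs was 0.41 ± 0.73 at 1:1, 0.28 ± 0.73 at 1:10 and 0.34 ± 0.73 at 1:100 (edgeR, adjusted p of 0.750, 0.832 and 0.787). The lower level of mir-2a-1-3p after oxidation is thus not seen in the sum, of which mir-2a-2-3p is the larger part. Summed mir-13b-3p held 2.47% ± 0.0523 in oxidised and 4.15% ± 0.828 in untreated 1:1 libraries, and summed mir-2b-3p 0.140% ± 0.0621 in oxidised and 0.232% ± 0.00279 in untreated libraries.

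As the files divide the counts, the balance of arms within a hairpin differed most between treatments in mir-2a-1. Its 5p arm made up 67.5% ± 6.10 of the hairpin's counts in oxidised 1:1 libraries and 11.9% ± 2.73 in untreated ones (SD, n = 3 each). At 1:10 it made up 66.1% ± 6.25 in oxidised and 11.8% ± 0.314 in untreated libraries, and at 1:100 68.4% ± 4.83 in oxidised and 12.9% ± 1.07 in untreated libraries. These shares rest on how the files divide 3p counts between mir-2a-1 and mir-2a-2. With both copies summed, a setting added after the data were seen, the 5p arms of mir-2a made up 23.3% ± 3.17 in oxidised and 23.2% ± 1.198 in untreated 1:1 libraries, 24.8% ± 3.52 in oxidised and 19.9% ± 2.87 in untreated libraries at 1:10, and 23.1% ± 5.13 in oxidised and 21.8% ± 2.25 in untreated libraries at 1:100. Summed, the 3p arm was thus the more abundant in both treatments, and the groups overlapped at 1:1 and 1:100. In mir-2b-2 the 5p arm was the more abundant arm in both treatments, with 98.0% ± 0.683 in oxidised and 89.8% ± 2.58 in untreated 1:1 libraries. In mir-13b-2 the 5p arm was the minor arm in both, with 11.2% ± 2.38 in oxidised and 3.89% ± 1.88 in untreated 1:1 libraries, and with 18.5% ± 5.29 in oxidised and 1.94% ± 0.826 in untreated libraries at 1:100. The hairpin mir-2a-2 went the other way at 1:1, with 20.5% ± 2.55 of its counts on the 5p arm in oxidised and 27.3% ± 0.423 in untreated libraries, and its groups overlapped at 1:10 (22.1% ± 2.93 in oxidised and 22.4% ± 3.88 in untreated libraries). The shares of mir-2b-2, mir-13b-2 and mir-2a-2 likewise take the 3p counts as the files divide them between copies. Over the whole family the 5p arms held 32.2% ± 3.43 of counts in oxidised and 22.0% ± 4.12 in untreated 1:1 libraries.

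The family as a whole made up 22.5% ± 1.64 of fly counts in oxidised and 12.7% ± 0.737 in untreated 1:1 libraries (SD, n = 3 each). At 1:10 the shares were 21.7% ± 2.24 in oxidised and 13.8% ± 0.220 in untreated libraries, and at 1:100 21.8% ± 3.32 in oxidised and 13.96% ± 1.47 in untreated libraries. The groups stayed apart up to 1:1000, with 18.1% ± 2.24 in oxidised and 12.6% ± 3.01 in untreated libraries. They overlapped at 1:10000, with 15.8% ± 5.22 in oxidised and 12.3% ± 4.05 in untreated libraries, and at 1:100000, with 12.3% ± 4.19 in oxidised and 10.1% ± 7.34 in untreated libraries. Without mir-2a-2-3p, the summed 3p arms went the other way, with 2.94% ± 0.0141 of fly counts in oxidised and 6.10% ± 1.00 in untreated 1:1 libraries. These shares are set against all other fly entries, and bantam-3p, the most abundant in untreated libraries, made up 10.4% ± 0.214 in oxidised and 42.8% ± 8.36 in untreated 1:1 libraries. At 1:1000 to 1:100000 the only fly neuron or muscle marker listed, dme-mir-124-3p, made up 0% to 0.122% of fly counts in oxidised libraries and 0.603% to 40.6% in untreated ones, and its part in these shares was not tested.

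**Figure D4:**
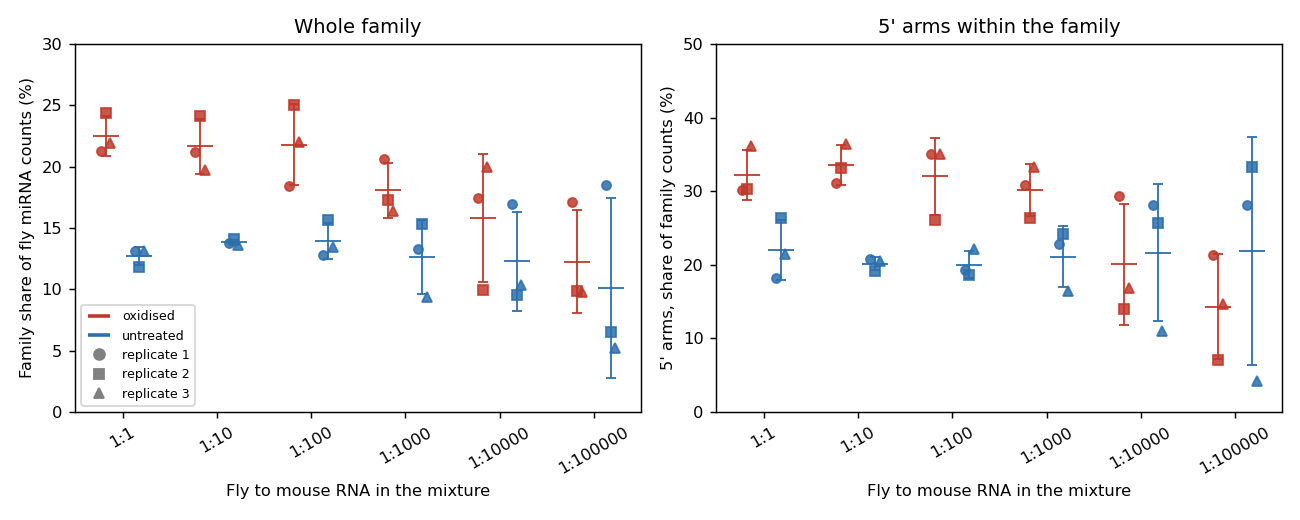
Left, share of the family in fly miRNA counts, and right, share of 5p arms in the family's counts, in percent by mixing ratio, oxidised in red and untreated in blue, with 1 symbol per replicate and bars of mean ± SD (n = 3). The family's share is 22.5% in oxidised and 12.7% in untreated libraries at 1:1, and the groups overlap at 1:10000 and 1:100000.

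Relative to mouse miRNAs, every tested member rose at the first ratios. With libraries scaled to mouse counts, edgeR's quasi-likelihood test called 12 of 12 members higher in oxidised libraries at 1:1, 1:10 and 1:100, where it called 98.3%, 99.1% and 94% of fly entries and 21.4%, 22% and 21.4% of all entries of both species. Calls with the mixture as a block are described only at the end, since the share of fly entries was not counted there. Without a block the test called 11 of 12 at 1:1000 (82.1% of fly and 19.1% of all entries), 11 at 1:10000 (73.5% and 17.9%) and 8 at 1:100000 (56.4% and 13.4%). The median log2 change of the members was 5.98 at 1:1, 7.89 at 1:10 and 8.41 at 1:100, beside 6.93, 9.18 and 9.27 for all tested fly entries. The change was lowest for mir-2a-1-3p at 1:1, 3.70 ± 0.90 (SE, adjusted p = 0.00125), and highest for mir-2a-2-3p, 7.77 ± 1.60 (adjusted p = 0.000168). The mir-2b-2-5p change was 7.62 ± 1.58 (adjusted p = 0.000183). At 1:1 the call of dme-mir-2a-1-3p was lost with mouse totals without TMM factors (log2 change 1.09, adjusted p = 0.149), and it and dme-mir-2c-3p were lost with totals of both species. In oxidised 1:1 libraries the mir-290 cluster made up 5.14% to 9.98% of mouse counts, against 67.2% to 69.8% in untreated ones. The single entry mmu-mir-184-3p made up 85.1% to 91.6% of mouse counts in oxidised and 4.24% to 10.2% in untreated 1:1 libraries. The scaling moved the values. The median change of fly entries at 1:1, 6.93 as tested, was 7.02 without that entry in the mouse totals, 5.27 with totals of both species and 4.34 with mouse totals without TMM factors. At 1:10, where it was 9.18 as tested, it was 6.36 with totals of both species and 6.90 with mouse totals without TMM factors. The part of this in the mouse-scaled values was not tested.

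Over all libraries with counts, the members fell less steeply with dilution, relative to all mouse counts, in oxidised than in untreated libraries. This held for 12 of 12 members within replicate 2 and within replicate 3, and for 9 of 12 within replicate 1. Summed fly counts did the same, with slopes of 0.41 ± 0.04 in oxidised and 0.78 ± 0.05 in untreated libraries (SE, 18 each). Within replicates 1, 2 and 3 these were 0.47, 0.43 and 0.33 in oxidised and 0.61, 0.87 and 0.87 in untreated libraries. The less steep fall was thus not particular to the members. In replicate 1 the slopes were 0.61 in oxidised and 0.52 in untreated libraries for mir-2b-2-5p, 0.54 in oxidised and 0.50 in untreated libraries for mir-2a-1-5p, 0.54 in oxidised and 0.48 in untreated libraries for mir-13b-2-5p, and 0.51 in oxidised and 0.53 in untreated libraries for mir-2a-2-3p. The slope of log10 counts per mouse count on the log10 mixing ratio, which is 1 where counts follow the RNA mixed in, was 0.48 ± 0.05 in oxidised and 0.80 ± 0.07 in untreated libraries for mir-2a-2-3p (SE, 18 libraries each). For mir-2a-1-3p it was 0.27 ± 0.03 in oxidised and 0.83 ± 0.05 in untreated libraries, and for mir-13b-2-3p 0.39 ± 0.04 in oxidised and 0.84 ± 0.05 in untreated libraries. For mir-2b-2-5p it was 0.63 ± 0.07 in oxidised libraries (18 libraries) and 0.79 ± 0.08 in untreated ones (17 libraries with counts). Among the 34 tested fly entries counted in all 18 oxidised libraries, the slopes ran from 0.27 to 0.63 (median 0.43), so that mir-2a-1-3p and mir-2b-2-5p marked the ends. Among the 16 counted in all 18 untreated libraries they ran from 0.77 to 0.84 (median 0.80). These slopes divide by all mouse counts, whose make-up changed with dilution in oxidised libraries. There the mir-290 cluster made up 5.14% to 9.98% of mouse counts at 1:1 and 57.1% to 76.0% at 1:1000 to 1:100000. In untreated libraries it made up 67.2% to 69.8% at 1:1 and 66.8% to 90.0% at 1:1000 to 1:100000. The single entry mmu-mir-184-3p made up most of the mouse counts in oxidised 1:1 libraries, as given above. The part of these shifts in the slopes was not tested. Untreated replicate 1 held more family counts at 1:100000 than at 1:10000, 338 against 103, while replicates 2 and 3 held 9 and 24 at 1:100000 and 35 and 128 at 1:10000.

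**Figure D5:**
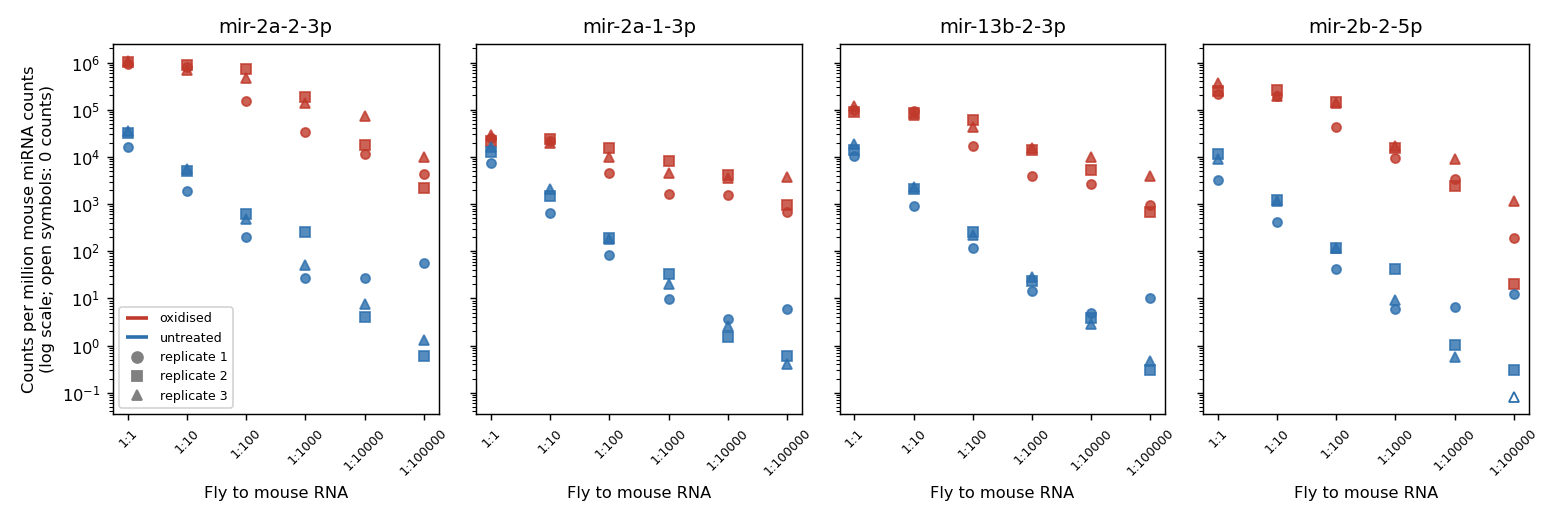
Counts of 4 members relative to mouse miRNA counts by mixing ratio, on a log axis, oxidised in red and untreated in blue, with 1 symbol per replicate and open symbols for 0 counts. Slopes in oxidised libraries are 0.48, 0.27, 0.39 and 0.63 from the left panel to the right, and the untreated symbol of replicate 1 lies above those of replicates 2 and 3 at 1:100000.

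Other fly miRNAs with the K-box seed were set beside the family. Of 10 entries of mir-6, mir-11 and mir-308, 4 passed the filter on low counts, both arms of mir-11 and of mir-308. The arms of mir-308 parted as those of mir-2a-1 did where the mir-2a copies were kept apart. With those copies summed, the 5p arms made up 23.3% of mir-2a counts in oxidised and 23.2% in untreated 1:1 libraries. The 3p arm of mir-308 held 0.250% ± 0.0515 of fly counts in oxidised and 0.817% ± 0.548 in untreated 1:1 libraries (SD, n = 3 each). The 5p arm of mir-308 held 0.946% ± 0.111 in oxidised and 0.151% ± 0.0442 in untreated ones (SD, n = 3 each). Relative to other fly miRNAs mir-308-3p was called lower at 1:1, 1:10 and 1:100, with a log2 change of -2.21 ± 0.63 at 1:1 (edgeR, adjusted p = 0.0150), and mir-308-5p had a log2 change of 2.10 ± 0.84 at 1:1 (adjusted p = 0.100). With the mixture as a block mir-308-5p was called higher at 1:1, 1:10, 1:100 and 1:1000, with 2.11 ± 0.38 at 1:1 (edgeR, adjusted p = 5.84e-05), and with fly entries alone in the fit at 1:1 (adjusted p = 0.00935). The block also called mir-308-3p lower at 1:1000 (-1.28 ± 0.39, edgeR, adjusted p = 0.0238), as did the fit of fly entries alone (adjusted p = 0.04996). The arms of mir-11 had changes of -0.34 ± 0.63 for 3p and 0.21 ± 0.57 for 5p at 1:1 (adjusted p of 0.714 and 0.813).

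Over the 18 libraries of 1:1 to 1:100, the tested fly entries outside the family whose log2 share was most like that of mir-2a-2-3p were mir-305-3p, mir-1012-3p and mir-308-5p, with Pearson r of 0.958, 0.950 and 0.940. Within the family its r was 0.953 with mir-2b-2-5p, 0.939 with mir-2a-1-5p and -0.940 with mir-2a-1-3p. Outside the family the entries most like mir-13b-2-3p were mir-317-3p, mir-308-3p and mir-1008-3p, with r of 0.956, 0.918 and 0.910. Within it, r was 0.961 with mir-2a-1-3p and 1.00 with its copy mir-13b-1-3p, whose counts are nearly the same. These values describe points that share libraries, depth and the treatment contrast, and carry no p.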

How the data were processed

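The data are expected counts, estimated read counts that can be fractional, 1 per miRNA arm, deposited by the authors without scaling to depth, per the file headers and the values (whole numbers made up 80.0% to 98.1% of a library's values, tolerance 0). RNAs of 18 to 30 nt had been selected, per the labels' protocols. Per the submitters' processing notes, tools included HTSeq 0.6.1p1 and cutadapt 1.2.1, with genome builds dm3 (fly) and mm10 (mouse). For the aligner, and for reads that match several entries, the sources used here give nothing. Replicate 1 has files of 1781 entries, against 2038 in replicates 2 and 3. The 257 missing entries, none above 6 counts elsewhere, were set to 0. Libraries with unnumbered titles served as replicate 1. The members and lists were chosen with earlier results of these data known.

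Counts were rounded and tested with edgeR 4.0.16 in R 4.3.3 by 1 quasi-likelihood fit to the 36 libraries, in which each group had its own mean. Entries were kept by filterByExpr (minimum count 10, minimum total 15), which left 576 entries, 117 of them fly. Libraries were scaled to mouse totals or to fly totals, times TMM factors from the kept entries of that species, and calls were made at an adjusted p under 0.05. Adjustment ran over all 576 entries for mouse scaling and over the 117 fly entries for fly scaling. The SE of an edgeR change is its absolute log2 value divided by the square root of the test's F statistic. The scripts were tested on simulated data. Shares used unrounded counts, and counting error adds to each value, since amplified reads are not independent molecules. DESeq2 1.42.0 and the other alternatives are given at the end. Sequences were not used here. All members were named, as were the K-box relatives and, for mir-2a-2-3p and mir-13b-2-3p, the 3 tested fly entries outside the family with the highest Pearson r. All 8 hairpins were found in the gene table.

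Per the labels, mixtures were split before oxidation, which pairs oxidised and untreated libraries of the same number and ratio. In a check, deviations from group means were correlated within pairs over the top 300 entries. The median r of the 18 pairs was 0.207, r was above 0.1 in 16 pairs, and the same number correlated best in 10 of 18.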

Additional observations from a re-analysis of the deposited data

How the results depend on the processing

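At 1:1 to 1:100, no member's change relative to mouse miRNAs turned its direction in an alternative run. Without one replicate the calls numbered 12 at 1:1 and 1:10, 11 to 12 at 1:100, 10 to 11 at 1:1000, 9 to 11 at 1:10000 and 4 to 8 at 1:100000. With the 6 libraries of a ratio alone they were 7 at 1:10000 and 1 at 1:100000. No replicate block changed these counts by over 1.5 times. The shares of all fly entries called were not counted in these alternative runs.

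Calls relative to other fly miRNAs depended on the setting, while directions at 1:1 to 1:100 held except where named. With a replicate block by mixture, the pairing of the split parts, the higher and lower calls were 1 and 7 at 1:1, 2 and 7 at 1:10, 2 and 7 at 1:100, and 0 and 1 at 1:1000. With the replicate set as block the lower calls at 1:100 were 2. Without a filter on low counts there were 0 lower calls at 1:1, 1:10 and 1:100 and 0 higher at 1:100. DESeq2 gave 1 lower call at 1:1 and at 1:10, and 0 higher at 1:100. With the 6 libraries of a ratio alone, 2 were higher and 5 lower at 1:1, and 3 lower at 1:100. Fly totals without TMM left 1 lower call at 1:1 and at 1:10. Fly entries alone in the fit, added after the data were seen, gave 1 higher and 6 lower at 1:1, 2 and 6 at 1:10, 6 lower at 1:100, and 1 and 3 at 1:1000. Summed copies left 1 lower call at 1:1 and at 1:10, and 0 of either direction at 1:100. Without one replicate, lower calls ranged from 0 to 4 at 1:1 and 1:10, 0 to 3 at 1:100 and 0 to 1 at 1:1000, and higher calls from 0 to 1 at 1:100 and 1:1000. The cause was not tested. Shares of all fly entries called were counted only for the mixture block and the fit of fly entries alone, as given above. In the other settings the members cannot be set beside fly entries at large.

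Directions turned in the following cases. In replicate 1 alone the slopes of mir-2b-2-5p, mir-2a-1-5p and mir-13b-2-5p were steeper in oxidised than in untreated libraries. For mir-2a-1-3p, the sum of the copies had changes of 0.41, 0.28 and 0.34 from 1:1 to 1:100, which the larger counts of mir-2a-2-3p in that sum bring about. The change of mir-13b-2-5p at 1:1 ranged from -0.12, without replicate 1, to 0.53, without replicate 2. The slope of mir-13a-3p in oxidised libraries was -0.115 in replicate 2 alone, and that of mir-2c-3p was -0.105 in replicate 1 alone. The log2 difference of the mir-2a 3p copy ratio ranged from -0.49 to 0.46 at 1:100000 without one replicate, from 0.39 to 1.88 at 1:10000, from 2.13 to 3.16 at 1:1000, and from 3.83 to 3.90 over 1:1 to 1:100. The family's share without one replicate ranged from 21.6% to 23.2% in oxidised and from 12.5% to 13.1% in untreated 1:1 libraries. Low counts limit all values past 1:1000, where single libraries held as few as 47 family counts when oxidised and 9 when untreated.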
